A study of Mus musculus with 12 samples.

Results

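A group of 51 genes, of 27179 counted, stayed near its starting level for 4 days of doxycycline (Dox) and stood far above it at day 6. The genes were chosen on CPM, read counts scaled to library size with TMM factors that correct for composition. A chosen gene averaged at least 10 CPM at day 6 and at least 6 times its untreated mean. Its day 2 and day 4 means were at most 1.5 times the untreated mean, and each day 6 library lay above the other 9 libraries. Ltf and Cebpe met these limits and were left out by the rule. The levels below are therefore a description of genes picked for this pattern, and no test is given for them.

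The cells were AML246, a cytogenetically normal mouse acute myeloid leukemia on the C57BL/6 strain that is p53-/- and carries shPU.1, a hairpin against PU.1 linked to GFP. All groups share this genotype and came from the bone marrow of leukemic recipient mice, sorted by GFP. Dox switched the hairpin off, so PU.1, encoded by Spi1, came back gradually. The 4 groups of 3 libraries were untreated cells in the GFPhigh gate, day 2 in GFPhigh-mid, day 4 in GFPmid and day 6 in GFPlow. The gate moved with the days, so gate and time on Dox cannot be told apart, nor can Dox itself be told apart from hairpin shut-off. AML246 is a single leukemia, sample titles call its replicates technical, and the design text speaks of triplicate mice. A p-value below thus reflects how far these libraries scatter, and that scatter may be only technical.

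Neutrophils mature in the marrow through ordered stages. Primary granule proteins are made first by promyelocytes, secondary and tertiary granule proteins follow, and the receptors that let the cell leave the marrow and sense chemokines and bacterial peptides come late. PU.1 and the C/EBP factors are known regulators of this program. Among the 51 genes, 9 stood in lists of marker genes drawn up for granulocytes and other marrow cells. These lists held 268 of the 27179 genes counted and were drawn up with earlier results of these data known. The 9 were Mmp25 of the tertiary granule list, Cxcr2, Fpr2, Il1r2 and Trem1 of the neutrophil surface list, Mxd1, Pram1 and Slc2a3 of the late neutrophil list, and C1qa of the monocyte and macrophage list.

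Library totals were 4918920 to 7356166 counts, at which 3 counts in a library equal 0.393 to 0.640 CPM. This covers counting error only. Per-library values are given in the order of replicates 1, 2 and 3, and means with the SD of 3 libraries. Spi1 had 54.2, 67.5 and 65.9 CPM without Dox, 107, 98.8 and 123 CPM after 2 days, 244, 267 and 269 CPM after 4 days and 497, 439 and 438 CPM after 6 days. Day 6 replicate 2 stood apart from the other day 6 libraries. The mean chi-square per gene, about 1 where libraries differ by counting error alone, was 47.5 and 40.8 between it and replicates 1 and 3. It was 4.56 between replicates 1 and 3 and 2.64 to 10.1 in pairs of the other groups. The marker list sums were 152421, 87054 and 135105 CPM for secondary and tertiary granule genes and 4414, 7618 and 4492 CPM for monocyte and macrophage genes in day 6 replicates 1, 2 and 3. Rag1 and Lck, genes of the lymphoid lineage named after their values were seen, had 1.92, 23.6 and 1.76 CPM and 1.07, 20.7 and 1.17 CPM in these 3 libraries. The B-lineage list, which holds Rag1, summed to 7.68, 30.1 and 7.22 CPM there. The T and NK list, which holds Lck, summed to 119, 81.7 and 126 CPM, and so was lowest in replicate 2. The names of the deposited data carry Rag1-/- for every library, which the sample labels do not explain.

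The promoters of 40 of the 51 genes were matched in RefSeq (GRCm38.p6), as the 250 bases before the start of an annotated transcript. The 6 shown are those of receptors, granule or metabolic genes, with and without a matching motif, and lie outside the gene itself. They are printed from 5′ to 3′ along the gene, with capitals for GAGGAA, the core bound by PU.1, or TTGCNNAA, a core bound by C/EBP factors, read on either strand. GAGGAA reads TTCCTC on the other strand. Cxcr2 lies at chr1:74153744-74153993, plus strand, Fpr2 at chr17:17887574-17887823, plus strand, Mmp25 at chr17:23645270-23645519, minus strand, and Slc27a4 at chr2:29802384-29802633, plus strand. Ly75, with the C/EBP core, lies at chr2:60383274-60383523, minus strand, and Chil1, which has neither motif in this window, at chr1:134181906-134182155, plus strand.
Cxcr2: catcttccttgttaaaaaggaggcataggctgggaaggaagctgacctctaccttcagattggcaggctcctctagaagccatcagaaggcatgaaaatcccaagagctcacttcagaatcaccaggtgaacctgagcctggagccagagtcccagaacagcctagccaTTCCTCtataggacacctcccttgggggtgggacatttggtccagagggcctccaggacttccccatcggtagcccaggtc
Fpr2: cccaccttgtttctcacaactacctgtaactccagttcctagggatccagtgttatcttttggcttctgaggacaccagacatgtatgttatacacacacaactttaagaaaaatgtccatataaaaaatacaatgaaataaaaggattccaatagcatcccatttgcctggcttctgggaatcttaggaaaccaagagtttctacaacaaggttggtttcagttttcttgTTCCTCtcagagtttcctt
Mmp25: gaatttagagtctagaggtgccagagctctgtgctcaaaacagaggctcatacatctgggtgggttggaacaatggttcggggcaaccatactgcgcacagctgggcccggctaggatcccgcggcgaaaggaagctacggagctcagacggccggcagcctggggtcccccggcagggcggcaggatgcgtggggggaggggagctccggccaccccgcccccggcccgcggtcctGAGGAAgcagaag
Slc27a4: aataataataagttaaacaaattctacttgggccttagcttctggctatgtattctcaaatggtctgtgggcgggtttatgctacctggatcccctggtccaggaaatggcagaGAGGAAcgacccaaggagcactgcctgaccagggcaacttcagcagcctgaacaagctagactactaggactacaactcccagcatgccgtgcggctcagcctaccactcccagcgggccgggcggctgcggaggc
Ly75: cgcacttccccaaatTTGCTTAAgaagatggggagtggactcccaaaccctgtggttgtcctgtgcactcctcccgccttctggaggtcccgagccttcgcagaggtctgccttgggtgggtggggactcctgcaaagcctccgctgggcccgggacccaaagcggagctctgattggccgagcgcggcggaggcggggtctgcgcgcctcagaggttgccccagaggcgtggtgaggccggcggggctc
Chil1: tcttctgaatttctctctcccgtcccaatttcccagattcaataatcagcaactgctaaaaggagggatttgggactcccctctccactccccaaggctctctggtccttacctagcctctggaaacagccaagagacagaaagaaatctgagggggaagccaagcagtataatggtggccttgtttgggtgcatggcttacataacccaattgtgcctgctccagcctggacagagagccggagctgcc

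GAGGAA stood in 11 of the 40 windows (27.5%), among them Cxcr2, Fpr2, Mmp25, Slc27a4, Pram1 and Trem1. It stood in 23.1% of 27025 mouse promoters and in 23.2% of 7143 promoters of tested genes of at least 10 CPM at day 6. Among 251 promoters of genes with the same day 6 rise that already passed the limit at day 2 or day 4, it stood in 43.0%. The longer GAGGAAGT, which contains GAGGAA, was in 0 of the 40 windows, 9.16% of those 251 and 2.44% of all promoters. TTGCNNAA stood in 4 of the 40 windows (10%), those of Actn1, Ly75, Erg and Pax8, against 14.7% of the 251 and 9.55% of all promoters. The median GC content was 62.2% in the 40 windows, 54.0% in the 251, 60.0% in the 7143 and 52.0% in all promoters. A letter match is no evidence of binding, and its absence concerns only these 250 bases.

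The day 6 means of the 51 genes ran from 10.1 to 964 CPM, with a median of 67.0. Relative to the untreated mean they were 6.01 to 99.7 times as high in the 50 genes other than Slc6a12, which had only 3 counts over the 9 earlier libraries, and the median over the 51 was 10.3. Relative to the day 4 mean the median was 10.8 times. The genes with the same day 6 rise that started earlier, 318 in number, had a median day 6 ratio to untreated of 19.6 in the 317 with untreated counts. In the 51 genes the day 4 mean was 0.420 to 1.49 times the untreated mean (median 1.20), and the day 2 mean had a median of 0.957 times. In 16 genes the day 4 mean was below the untreated mean, and in 13 of these the day 2 mean was too. Over all tested genes 21.9% had every day 6 library above the other 9, which the rule required here. In 46 of the 51 the lowest day 6 library was at least 2 times the highest of the earlier 9, a gap that the rule's limits favour. This ratio had a median of 4.38 in the 51 genes and 2.58 in the 318. Over tested genes of at least 10 CPM at day 6 its median was 0.781. Between day 4 and untreated cells the libraries overlapped in 40 genes. All day 4 libraries lay above all untreated libraries in 8 genes, against 29.2% of tested genes, and below them in 3, against 29.2% as well. The rule capped the day 4 mean, so these counts carry no further reading. In bulk RNA a smaller share of expressing cells and less RNA per cell cannot be told apart.

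**Figure D1:**
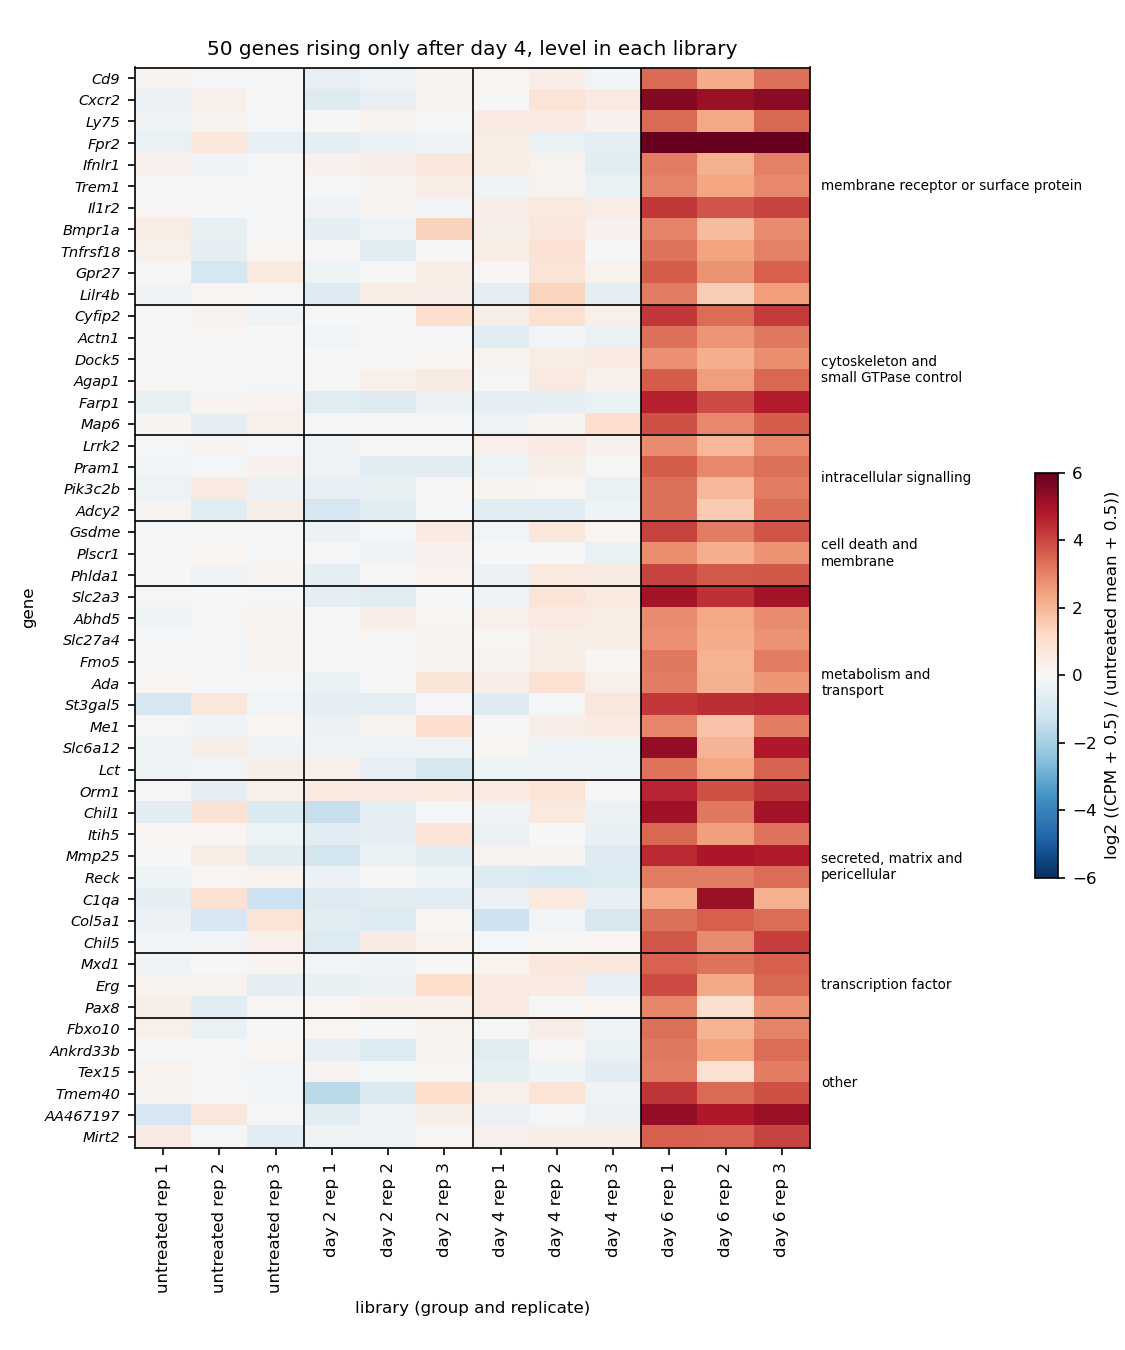
Level of 50 of the 51 genes (rows, grouped by role) in each of 12 libraries (columns), as log2 of (CPM + 0.5) over (untreated mean + 0.5). The 9 untreated, day 2 and day 4 columns are pale, and the 3 day 6 columns are red, with replicate 2 paler in most rows.

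Together the 51 genes took 0.0828% to 0.114% of the counts of a library up to day 4 and 0.494% to 0.701% at day 6. Their summed level was 776 to 820.3 CPM without Dox, 729.9 to 967 CPM after 2 days, 881 to 1122 CPM after 4 days, and 9532, 5847 and 9072 CPM in day 6 replicates 1, 2 and 3. Replicate 2 was the lowest of day 6, and that the sum was higher at day 6 follows from the rule.

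**Figure D2:**
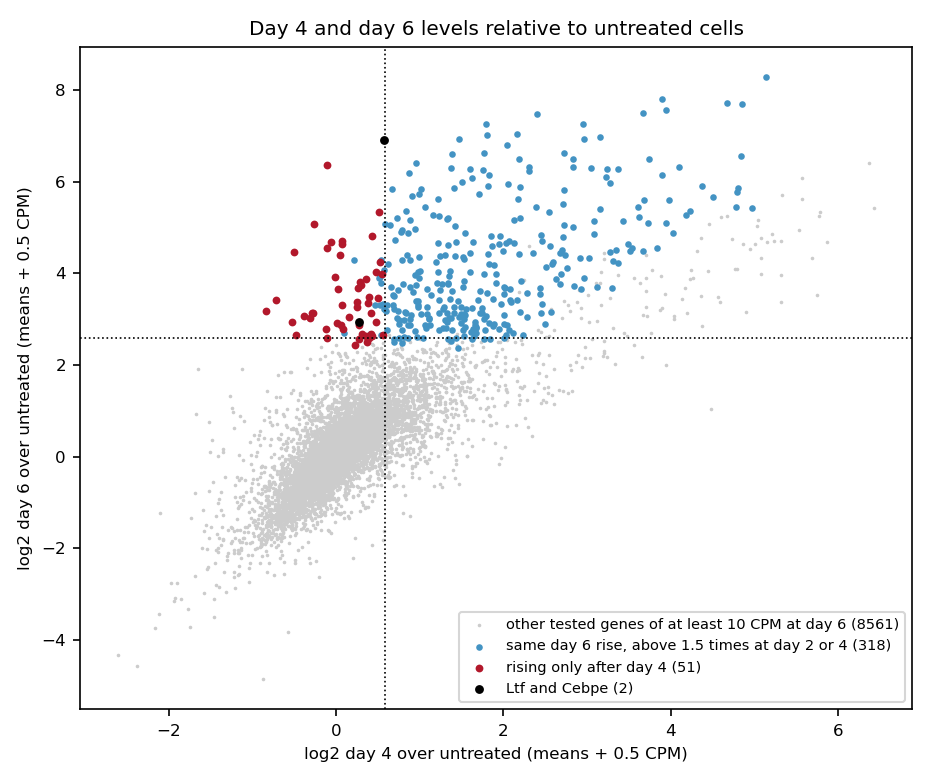
Day 4 (x axis) and day 6 (y axis) means over untreated means, as log2 with 0.5 CPM added, for tested genes of at least 10 CPM at day 6, with dotted lines at 1.5 times and 6 times. The 51 genes sit left of 1.5 times and all but 3 of them, which the added 0.5 CPM brings just under the line, above 6 times, the 318 earlier genes mostly to their right, and some of the 318 lie left of the line because they passed the limit at day 2 only or because of the added 0.5 CPM.

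The largest group by role held 11 receptors and other surface proteins, at 6.51 to 99.7 times untreated on day 6. Fpr2 (Entrez gene 14289, chromosome 17, 17887824 to 17893952), a receptor for formylated bacterial peptides, had 1.702, 4.04 and 1.58 CPM without Dox, 1.52, 1.83 and 1.97 CPM after 2 days, 3.45, 1.75 and 1.47 CPM after 4 days and 249, 235 and 246 CPM after 6 days. Its 9 earlier libraries were all under 5 CPM, the 3 day 6 libraries were close together, and the lowest of these was 58.2 times the highest earlier one. Its day 6 mean was 99.7 times the untreated mean, the largest ratio among the 50 genes other than Slc6a12.

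Cxcr2 (Entrez gene 12765, chromosome 1, 74153994 to 74161246), the chemokine receptor that draws neutrophils out of the marrow, had 4.96, 8.21 and 6.46 CPM without Dox, 3.65, 4.58 and 7.47 CPM after 2 days, 6.602, 12.1 and 9.83 CPM after 4 days and 316, 243 and 302 CPM after 6 days. All earlier libraries were under 13 CPM, day 4 overlapped untreated, and every day 6 library was at least 20.1 times the highest of them. Its day 6 mean was 43.8 times the untreated mean. Cxcr1, the related receptor, had 0 counts in all 12 libraries.

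Il1r2 (Entrez gene 16178, chromosome 1, 40084692 to 40125230), a decoy receptor that takes up interleukin-1 without signalling, had 7.09, 6.96 and 6.18 CPM without Dox, 5.77, 7.505 and 5.899 CPM after 2 days, 9.003, 10.5 and 9.25 CPM after 4 days and 137, 97.6 and 121 CPM after 6 days. Its day 4 libraries all lay a little above its untreated ones, and its day 6 libraries far above both. Trem1 (Entrez gene 58217, chromosome 17, 48232713 to 48246927), which amplifies inflammatory signals in neutrophils and monocytes, had 19.7, 21.02 and 20.1 CPM without Dox, 20.7, 22.9 and 27.7 CPM after 2 days, 17.1, 23.3 and 15.4 CPM after 4 days and 165, 108 and 154 CPM after 6 days. Trem1 was already present before Dox, its day 4 and untreated libraries overlapped, and the day 6 mean was 7.02 times the untreated mean.

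**Figure D3:**
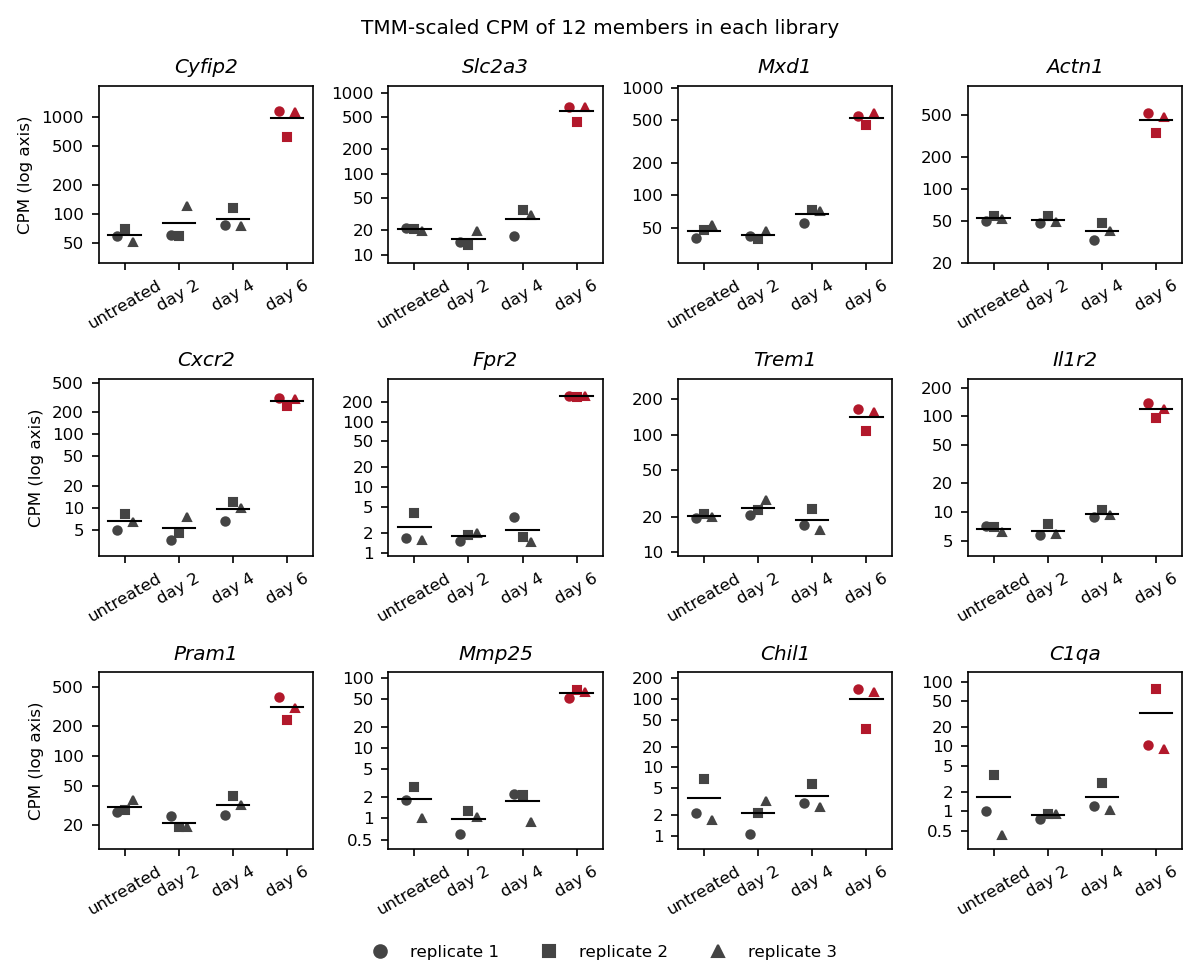
TMM-scaled CPM (y axes, log scale, each panel its own range) of 12 of the genes in each library by group, with marker shapes for replicates and bars for group means. In every panel the 3 day 6 points lie above the other 9, and C1qa differs from the rest in that replicate 2 is far above the other day 6 libraries.

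Cd9, a tetraspanin, had the highest day 6 level per kilobase of gene length, 326 CPM per kb. Its libraries held 52.3, 43.01 and 43.2 CPM without Dox, 32.4, 40.1 and 52.6 CPM after 2 days, 50.6, 61.97 and 41.7 CPM after 4 days and 489.8, 216 and 459.8 CPM after 6 days. Day 4 overlapped untreated, and day 6 replicate 2 had less than 0.5 times the level of the other day 6 libraries while still standing above all earlier ones. Ly75, an endocytic receptor also known as DEC-205, averaged 268 ± 102 CPM at day 6, against 30.1 ± 4.81 CPM in untreated cells. Ifnlr1, the specific subunit of the interferon lambda receptor, averaged 184 ± 60.3 CPM at day 6, against 26.1 ± 4.85 CPM in untreated cells.

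The remaining surface members were lower. Bmpr1a, a type I receptor for bone morphogenetic proteins, had 64.6, 30.9 and 58.6 CPM at day 6, and its highest earlier library, a day 2 one, had 21.1 CPM. Tnfrsf18, a receptor of the TNF receptor family, had 35.2, 19.4 and 30.5 CPM at day 6. Gpr27, an orphan G protein-coupled receptor, had 30.7, 15.8 and 29.1 CPM at day 6. Lilr4b, of the leukocyte immunoglobulin-like receptors, was the weakest case of the 51. It had 15.6, 4.66 and 10.2 CPM at day 6 and 0.7503, 4.23 and 0.734 CPM at day 4, so its lowest day 6 library was only 1.102 times its highest earlier one. Lilr4b, Fpr2, Chil5 and Orm1 have close paralogs, among which the counting could have split reads.

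Genes that control the cytoskeleton and small GTPases numbered 6, at 6.11 to 29.96 times untreated. Cyfip2 (Entrez gene 76884, chromosome 11, 46193849 to 46312859), a subunit of the WAVE complex that starts branched actin, was the most abundant of all 51. It had 59.8, 70.4 and 52.01 CPM without Dox, 61.1, 59.9 and 121 CPM after 2 days, 77.4, 114 and 75.2 CPM after 4 days and 1145, 622 and 1124 CPM after 6 days. Day 4 lay above untreated in every library, yet day 6 was 10.8 times day 4 by the means. Fndc9, a gene that overlaps Cyfip2, averaged 3.51 CPM at day 6.

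Actn1 (Entrez gene 109711, chromosome 12, 80167542 to 80260420), the actin cross-linker alpha-actinin 1, had 49.8, 56.5 and 52.7 CPM without Dox, 47.5, 55.5 and 49.2 CPM after 2 days, 33.3, 47.5 and 40.2 CPM after 4 days and 526, 337 and 477.5 CPM after 6 days. Here the 3 day 4 libraries lay below the 3 untreated ones, so the level was lower before it was high. Dock5, an exchange factor for Rac, averaged 351 ± 78.5 CPM at day 6, against 57.4 ± 0.845 CPM in untreated cells. Farp1, a guanine nucleotide exchange factor, averaged 39.6 ± 10.9 CPM at day 6, against 1.32 ± 0.408 CPM in untreated cells, and its day 4 mean was 0.787 CPM. Agap1, a GTPase-activating protein for Arf, averaged 179 ± 65.01 CPM at day 6, against 18.1 ± 1.05 CPM in untreated cells, and Map6, which stabilises microtubules, stood at 14.7 CPM at day 6.

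Of the signalling genes, Pram1 (Entrez gene 378460, chromosome 17, 33638056 to 33645706), an adaptor of myeloid cells with a role in neutrophil adhesion responses, had 27.2, 28.7 and 36.5 CPM without Dox, 25.1, 19.4 and 19.1 CPM after 2 days, 25.2, 39.7 and 32 CPM after 4 days and 393, 234 and 309 CPM after 6 days. Untreated and day 4 libraries overlapped, and the day 2 libraries lay just below both. Lrrk2, a kinase with a GTPase domain, averaged 377 ± 117 CPM at day 6, against 60.8 ± 5.95 CPM in untreated cells. Pik3c2b, a class II phosphoinositide kinase, averaged 30.8 ± 13.1 CPM at day 6, against 3.66 ± 1.53 CPM in untreated cells, and Adcy2, an adenylyl cyclase, 16.4 ± 9.098 CPM at day 6, against 1.71 ± 0.771 CPM in untreated cells. In Adcy2 day 6 replicate 2 held 5.95 CPM, against 21.3 and 22.1 CPM in replicates 1 and 3.

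Membrane damage and death genes were represented by Gsdme, which encodes a pore-forming gasdermin, at 170.2, 84.2 and 139 CPM on day 6, against 9.36, 9.88 and 9.91 CPM in untreated cells. Plscr1, a phospholipid scramblase, had 78.1, 50.95 and 72.04 CPM at day 6, against 10.8, 11.6 and 9.91 CPM in untreated cells. Neither gene had an earlier library that reached its day 6 range, which the rule required of every member. Phlda1 averaged 16.6 ± 2.46 CPM at day 6, against 0.709 ± 0.153 CPM in untreated cells.

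Metabolic enzymes and transporters numbered 9. Slc2a3 (Entrez gene 20527, chromosome 6, 122727809 to 122802363), the high-affinity glucose transporter GLUT3, had 21.6, 20.6 and 19.8 CPM without Dox, 14.1, 13 and 19.8 CPM after 2 days, 16.96, 35.9 and 30.8 CPM after 4 days and 676, 441 and 677 CPM after 6 days. Day 4 overlapped untreated, and the day 6 mean was 28.9 times the untreated mean. Abhd5, the coactivator of triglyceride lipase, had the highest untreated level of the 51 and averaged 589 ± 111 CPM at day 6, against 91.3 ± 14.1 CPM in untreated cells.

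Slc27a4, a fatty acid transport protein, averaged 307 ± 56.5 CPM at day 6, against 51.1 ± 7.42 CPM in untreated cells, and at 6.01 times untreated it was the member closest to the fold limit. Me1, cytosolic malic enzyme, averaged 32.2 ± 13.9 CPM at day 6, against 4.58 ± 0.602 CPM in untreated cells. Ada, which deaminates adenosine, averaged 105 ± 32.2 CPM at day 6, against 16.2 ± 1.48 CPM in untreated cells, and its day 4 mean of 24.1 CPM was just inside the limit. St3gal5, the sialyltransferase that makes the ganglioside GM3, averaged 44.7 ± 4.38 CPM at day 6, against 1.64 ± 1.19 CPM in untreated cells. Its day 6 libraries lay close together, with 39.9, 45.8 and 48.4 CPM. Fmo5, a flavin monooxygenase, averaged 301 ± 108 CPM at day 6, against 40.8 ± 5.59 CPM in untreated cells, and its overlapping neighbour Chd1l held 58.8 CPM at day 6, against 58.0 CPM in untreated cells.

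Slc6a12, a betaine and GABA transporter, was nearly silent before day 6, with 2 counts over the untreated libraries, 0 over day 2 and 1 over day 4. It then had 22.4, 1.93 and 15.8 CPM at day 6. Replicate 2 was far below replicates 1 and 3, and no fold is given because the earlier counts are at the floor. Lct, lactase, averaged 12.7 ± 4.98 CPM at day 6, against 0.994 ± 0.389 CPM in untreated cells.

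Secreted, matrix and pericellular genes numbered 8. Mmp25 (Entrez gene 240047, chromosome 17, 23628315 to 23645269), a membrane-anchored metalloproteinase of neutrophil granules, had 1.84, 2.78 and 1.01 CPM without Dox, 0.608, 1.28 and 1.05 CPM after 2 days, 2.25, 2.19 and 0.881 CPM after 4 days and 52.03, 67.8 and 62.9 CPM after 6 days. Every earlier library was under 3 CPM, the day 6 libraries lay close together with replicate 2 the highest, and the mean ratio to untreated was 32.4. Reck, a membrane-anchored inhibitor of metalloproteinases, had 2.55, 3.34 and 3.74 CPM without Dox, 2.43, 3.11 and 2.49 CPM after 2 days, 1.65, 1.46 and 1.61 CPM after 4 days and 31.6, 30.5 and 36.9 CPM after 6 days. With Actn1 and Tex15 it was 1 of the 3 genes whose day 4 libraries all lay below the untreated ones.

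Orm1, the acute-phase glycoprotein orosomucoid 1, averaged 167 ± 44.2 CPM at day 6, against 8.23 ± 2.44 CPM in untreated cells, or 217 CPM per kb at day 6. Chil1 (Entrez gene 12654, chromosome 1, 134182156 to 134190031), a chitinase-like protein whose human counterpart is stored in specific granules, had 2.13, 6.82 and 1.72 CPM without Dox, 1.06, 2.197 and 3.28 CPM after 2 days, 3.001, 5.69 and 2.64 CPM after 4 days and 138, 36.2 and 127 CPM after 6 days. Its day 6 replicate 2 was 0.273 times the mean of replicates 1 and 3, though still above the earlier 9. Chil5, a further chitinase-like gene, averaged 10.6 CPM at day 6. Itih5, which binds hyaluronan, averaged 79.6 ± 25.3 CPM at day 6, against 8.67 ± 1.41 CPM in untreated cells, and Col5a1, a collagen V chain, 16.2 ± 1.74 CPM at day 6, against 1.05 ± 0.983 CPM in untreated cells.

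C1qa, a chain of the complement component C1q made mainly by macrophages, went against the rest. It had 0.993, 3.62 and 0.431 CPM without Dox, 0.759, 0.915 and 0.918 CPM after 2 days, 1.20, 2.77 and 1.03 CPM after 4 days and 10.4, 77.95 and 9.18 CPM after 6 days, so 1 library carries its mean, and without that library it no longer met the rule. The other C1q chains were also highest in replicate 2, with C1qb at 4.27, 52.6 and 7.03 CPM and C1qc at 10.02, 89.7 and 11.5 CPM at day 6. Other monocyte genes were also highest in replicate 2, with Csf1r at 284, 727 and 303 CPM and Ccr2 at 264, 773 and 327 CPM. Their part in the level of C1qa was not tested.

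Transcription factors numbered 4. Mxd1 (Entrez gene 17119, chromosome 6, 86647044 to 86669234), which binds Max and opposes Myc, had 40.1, 47.9 and 52.3 CPM without Dox, 41.8, 38.8 and 46.1 CPM after 2 days, 54.6, 72.6 and 71.9 CPM after 4 days and 549.6, 449 and 574 CPM after 6 days. All its day 4 libraries lay above untreated, and day 6 was 7.896 times day 4. Erg, an ETS factor, averaged 51.97 ± 26.3 CPM at day 6, against 4.57 ± 1.34 CPM in untreated cells, with replicate 2 at 24.1 CPM. Pax8, a paired box factor, was low, at 15.6, 3.697 and 13.7 CPM at day 6.

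The other 6 genes were Fbxo10, an F-box protein, and Ankrd33b, Tex15, Tmem40, AA467197 and Mirt2. AA467197 had a large ratio, with 33.5 ± 5.63 CPM at day 6, against 0.515 ± 0.562 CPM in untreated cells, which is 65.2 times. Fbxo10 averaged 89.1 ± 34.3 CPM at day 6, against 11.7 ± 2.99 CPM in untreated cells, while its overlapping neighbour Polr1e held 12.9 CPM at day 6, against 21.5 CPM in untreated cells. Tex15, known for its role in spermatogenesis, had 71.9, 15.3 and 68.3 CPM at day 6, with replicate 2 far below the others. Which reads fall in an overlap could not be separated, since no source used here gives the strand setting. Gpr27 lies with Eif4e3, which held 149.8 CPM at day 6, against 62.1 CPM in untreated cells, and Farp1 with the noncoding B930095G15Rik, at 5.45 CPM on day 6, against 0.284 CPM in untreated cells.

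Members lay on 16 chromosomes, 8 of them on chromosome 6 and 7 each on chromosomes 1 and 2. The closest pair was Pik3c2b and Chil1, 1073465 bases apart on chromosome 1, so no members lay closer together than that.

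Day 6 replicate 2 was the lowest of the day 6 libraries in 46 of the 51 genes and the highest in 3, namely C1qa, Col5a1 and Mmp25. Over tested genes of at least 10 CPM at day 6 it was the lowest in 47.7%, and over the 318 earlier genes in 218. The ratio of replicate 2 to the mean of replicates 1 and 3 had a median of 0.593 in the 51 genes, 0.760 in the 318 earlier genes and 0.966 in all genes of at least 10 CPM. It was below 0.5 in 16 of the 51, among them Slc6a12, Tex15, Pax8, Chil1 and Adcy2. The same held for 43 of the 318 earlier genes and 202 of the 8932 genes of at least 10 CPM. Fpr2, St3gal5 and Reck were close to level across the 3 libraries. This measure was not part of the rule, but the rule did use the same libraries.

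**Figure D4:**
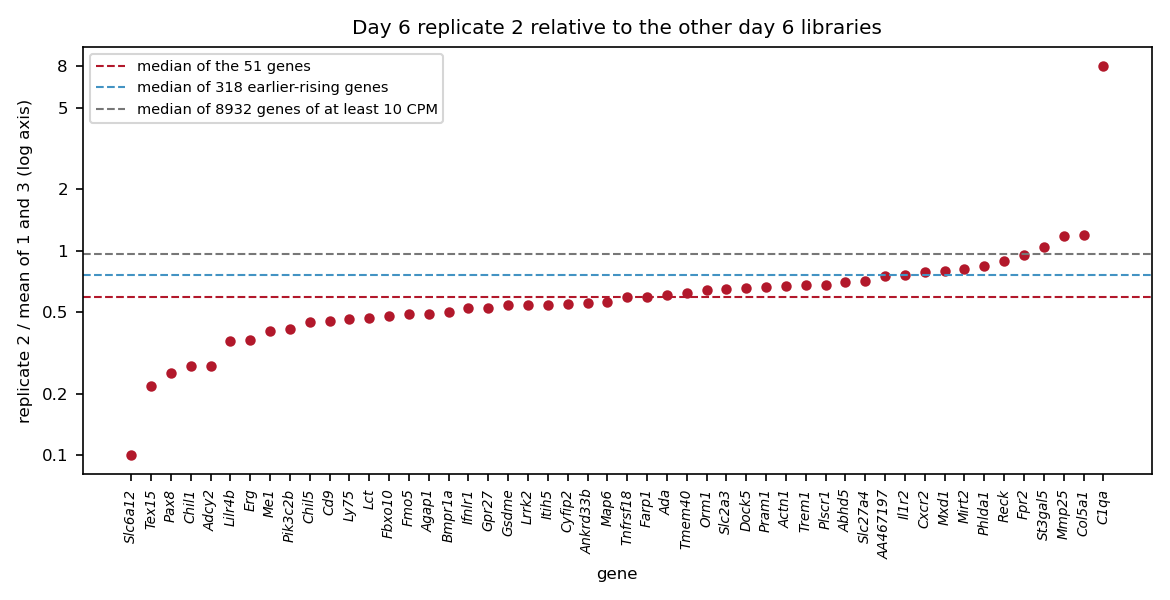
Ratio of day 6 replicate 2 to the mean of day 6 replicates 1 and 3 (y axis, log scale) for 50 of the 51 genes in rising order, with dashed lines at the medians of 3 gene sets. Most lie below the line of all genes of at least 10 CPM (0.966), and C1qa alone stands near 8.

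The rule was also applied with 1 day 6 library left out and that library then read. The 9 earlier libraries and their untreated mean stayed in the choice, and the replicates share 1 leukemia, so the counts that follow are a description and not independent support. Applying the rule without day 6 replicate 1 chose 43 genes, and in replicate 1 itself all 43 were above the earlier 9 libraries and 41 were at least 6 times the untreated mean. Without replicate 3 it chose 46, of which all 46 were above the earlier 9 and 43 were at least 6 times untreated in replicate 3. Without replicate 2 it chose 59, all 59 were above the earlier 9 in replicate 2, but only 26 were at least 6 times untreated there. The median ratio to untreated in the library left out was 13.95 for replicate 1, 5.60 for replicate 2 and 12.2 for replicate 3. Over all tested genes 21.9% had every day 6 library above the earlier 9, and the share for a single day 6 library was not computed.

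Some genes missed the group narrowly. Rag1 averaged 9.101 CPM at day 6 and Chac1 8.45, under the 10 CPM limit, though Rag1 had 23.6 CPM in replicate 2 and under 2 CPM in replicates 1 and 3. Lilr4b at 10.1 and Chil5 at 10.6 were just over that limit. Anxa11 at 5.62 times and Prss16 at 5.59 times untreated were just under the fold limit, with Slc27a4 at 6.01 and Dock5 at 6.11 just over it. Nlrp12 and Dgkh, both at 1.51 times in their higher early mean, exceeded the early limit that Map6 and Ada met at 1.49. The genes that missed a single limit were 1601 for the fold at day 6, 318 for the early limit, 50 for the level and 0 for separate libraries.

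The dropped genes had the same course. Ltf, lactoferrin of secondary granules, had 44.8, 135 and 51.6 CPM without Dox, 37.1, 54.7 and 63.3 CPM after 2 days, 70.1, 135 and 140.0 CPM after 4 days and 12761, 5327 and 10087 CPM after 6 days. Cebpe, the C/EBP factor needed for secondary granules, averaged 67.1 CPM without Dox, 68.04 CPM after 2 days, 81.5 CPM after 4 days and 520.4 CPM after 6 days. In Ltf untreated replicate 2 was the highest untreated library, and day 4 overlapped untreated in both genes.

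Many other genes of the neutrophil program were higher at both steps. Over 6 neutrophil lists, 96 tested genes lay outside the 51, and 70 were higher and 11 lower at day 6 than at day 4 by edgeR's quasi-likelihood test at an adjusted p under 0.05, against 23.6% higher and 22.6% lower over all tested genes. Their median log2 fold change was 1.71, against -0.03 over all genes. Already at day 4, 60 of the 96 were higher and 9 lower than in untreated cells, against 22.1% and 20.2%, with a median of 1.32 against -0.01. Of the 96, 47 were higher at both steps and 23 at the day 6 step that were not called higher at day 4. A call missed at day 4 does not show that a gene was unchanged, and taking out the 51 and the dropped genes removed genes that were flat at day 4. The share of all calls that were higher at day 6 than day 4 was 51.1% with TMM, 34.6% when upper-quartile factors were used and 17.5% on plain library totals.

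By role, the secondary and tertiary granule genes had 18 higher and 0 lower of 20 tested outside the 51 at day 6 against day 4, with a median log2 fold change of 3.67. Mmp9, the gelatinase of tertiary granules, changed by 5.49 ± 0.45 on the log2 scale (SE; adjusted p = 1.06e-05) in edgeR's quasi-likelihood test, with 2545, 2431 and 2957 CPM at day 6 and 32.3, 71 and 73.4 CPM at day 4. Lcn2, lipocalin 2 of secondary granules, changed by 4.75 ± 0.37 on the log2 scale (SE; adjusted p = 6.18e-06) in the same edgeR test, and Ngp, neutrophilic granule protein, by 5.47 ± 0.74 on the log2 scale (SE; adjusted p = 0.000235). Without day 6 replicate 2 the same list had 18 higher and 1 lower.

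The surface and chemotaxis list had 18 higher and 1 lower of 25. Fpr1, the formyl peptide receptor related to Fpr2, changed by 5.55 ± 0.32 on the log2 scale (SE; adjusted p = 7.20e-07) at day 6 against day 4 in edgeR's quasi-likelihood test. It had 0.567, 2.51 and 0.575 CPM without Dox, 1.06, 0.183 and 0.524 CPM after 2 days, 1.501, 2.92 and 3.52 CPM after 4 days and 127, 119 and 130.0 CPM after 6 days, with all day 6 libraries far above the rest. C5ar1, the receptor for complement C5a, changed by 4.57 ± 0.49 on the log2 scale (SE; adjusted p = 5.52e-05) (edgeR), and Siglece, an inhibitory sialic acid receptor, by 4.87 ± 0.28 on the log2 scale (SE; adjusted p = 4.35e-07) (edgeR). Without day 6 replicate 2 the list had 20 higher and 1 lower.

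Late neutrophil genes had 22 higher and 2 lower of 28, with Retnlg, a resistin-like protein, at 4.95 ± 0.53 on the log2 scale (SE; adjusted p = 5.31e-05), and Lrg1, a leucine-rich glycoprotein, at 4.15 ± 0.33 on the log2 scale (SE; adjusted p = 7.14e-06), both by edgeR at day 6 against day 4. Stefin A genes, cysteine protease inhibitors, had 6 higher of 6, and 4 without day 6 replicate 2, and S100 genes 4 higher and 3 lower of 8. S100a9, a calcium-binding protein abundant in neutrophils, changed by 5.07 ± 0.64 on the log2 scale (SE; adjusted p = 0.000161) (edgeR). The 3 lower S100 genes were S100a10, S100a4 and S100a1, at -1.73, -1.39 and -0.38 on the log2 scale. Primary granule genes had 2 higher and 5 lower of 9, and Ctsg, cathepsin G, changed by -1.40 ± 0.12 on the log2 scale (SE; adjusted p = 6.18e-06) (edgeR). The 2 higher ones, Serpinb1a and Prss57, changed by 1.78 ± 0.16 and 1.68 ± 0.37 on the log2 scale (SE). NADPH oxidase genes had 6 higher of 7, and Cybb, the oxidase subunit, changed by 2.08 ± 0.29 on the log2 scale (SE; adjusted p = 0.000225) (edgeR). Granulocyte transcription factors had 6 higher and 2 lower of 15, with Klf5 at 2.26 ± 0.29 on the log2 scale (SE; adjusted p = 7.61e-05) (edgeR). The 2 lower ones were the C/EBP factors Cebpa and Cebpb, at -0.97 ± 0.15 and -0.75 ± 0.21 on the log2 scale (SE). Progenitor genes had 0 higher and 5 lower of 8 at day 4 against untreated, where 22.1% and 20.2% of all tested genes were called. At day 6 against day 4 they had 0 higher and 2 lower of 8, with Myc at -1.65 ± 0.26 on the log2 scale (SE; adjusted p = 0.000508) (edgeR). Over all tested genes 23.6% were higher and 22.6% lower at day 6 against day 4, which is near the share of lower progenitor genes. Without day 6 replicate 2 the higher and lower counts were 23 and 3 for late neutrophil genes, 4 and 2 for S100 genes, 2 and 6 for primary granule genes, 6 and 0 for NADPH oxidase genes, 7 and 2 for transcription factors and 1 and 3 for progenitor genes.

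Markers of other marrow cells were summed in each library. At day 6 the 15 erythroid markers summed to 5.54, 8.04 and 9.57 CPM in replicates 1, 2 and 3, with Hba-a1 at 0. B-lineage markers summed to 7.68, 30.1 and 7.22 CPM at day 6, against 22.0, 11.4 and 14.5 CPM in untreated cells. They include Rag1, whose raised level in replicate 2 is given above. T and NK markers summed to 119, 81.7 and 126 CPM at day 6, against 66.5, 74.6 and 45.3 CPM in untreated cells. Dendritic cell markers summed to 10.5, 11.8 and 7.47 CPM without Dox, 63.5, 54.5 and 21.7 CPM after 4 days and 77.4, 42.3 and 132 CPM after 6 days. All day 6 libraries lay above the untreated ones in both of these lists. The T and NK sums were 55.0, 59.3 and 122.6 CPM after 2 days and 98.1, 125.5 and 53.6 CPM after 4 days, and so overlapped day 6. At day 6 against day 4, 0 of 4 tested T and NK genes and 0 of 3 dendritic genes were called. Without day 6 replicate 2, 2 genes of each list were called higher and 0 lower. Basophil and mast cell markers summed to 7.89, 5.79 and 8.79 CPM at day 6, against 28.2, 18.2 and 14.7 CPM in untreated cells, and megakaryocyte and platelet markers to 9.38, 6.91 and 6.25 CPM at day 6, against 8.93, 16.8 and 6.03 CPM in untreated cells. Eosinophil markers summed to 245, 116 and 223 CPM at day 6, against 70.2, 1231 and 661 CPM at day 4. In untreated cells they summed to 23.3, 53.7 and 50.1 CPM, below all day 6 libraries. Stroma, endothelium and bone markers summed to 33.9, 29.1 and 25.4 CPM at day 6, against 343, 230.2 and 336 CPM in untreated cells. Monocyte and macrophage markers summed to 4414, 7618 and 4492 CPM at day 6, against 9683, 9747 and 10256 CPM at day 4. Of 16 tested outside the 51, 5 were higher and 4 lower at day 6 against day 4, or 5 and 6 without day 6 replicate 2. Over all tested genes 23.6% were higher and 22.6% lower at that step. Without Dox the monocyte and macrophage markers summed to 5500, 7131 and 6989 CPM. Their part in the levels of the 51 genes was not tested.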

How the data were processed

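The authors deposited raw read counts per Entrez gene with a gene length, per the file headers, for 12 libraries. Per the submitters' processing notes, the mm10 build, featureCounts, limma 3.22.0, edgeR 3.8.2 and CASAVA 1.8.2 were used, with no roles stated. Neither the aligner nor the strand setting was found (not given in the sources used here). Symbols for 25275 of 27179 identifiers, positions and promoters came from RefSeq (GRCm38.p6). In R 4.3.3 with edgeR 4.0.16, filterByExpr kept 12057 genes, TMM factors (0.737 to 1.15) scaled CPM, and all 12 libraries were fitted with the group as the only term (quasi-likelihood test, Benjamini-Hochberg adjustment, two-sided). Standard errors are the log2 fold change divided by the root of F. The members, marker lists, roles and alternatives were chosen with earlier results of these data known. Members were named by abundance, level per kilobase, ratio, list membership and certain role, and genes outside by the 4 largest called changes of a list, of which some are given. Spi1, Csf1r, Ccr2, Cxcr1, Rag1 and Lck were named after their values were seen. The single values of 1 member are not reported here. Alternatives were 3 other scalings, filters, limits of the rule, DESeq2 1.42.0, separate fits, the replicate block and each library left out. The procedure was tested on simulated data.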

Additional observations from a re-analysis of the deposited data

How the results depend on the processing

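The rule gave 51 genes. It gave 50 with RLE factors, 47 with TMM factors over all genes, 44 with upper-quartile factors (37 shared) and 35 with library totals (27 shared). It gave 30 with a stricter early limit, 99 with an early limit of 2 times, and 106 with a day 6 limit of 4 times. Leaving out each library gave 43 to 66 genes. The 66 came without day 4 replicate 2, and C1qa was the gene lost without day 6 replicate 2. Of the 51, 39 were kept without untreated replicate 1, the fewest, and all 51 without day 2 replicate 3. Without day 4 replicate 1, 9 were lost, among them Cxcr2, Cyfip2, Mxd1 and Slc2a3. Without untreated replicate 2, 10 were lost, among them Cxcr2 and Cyfip2. The stricter early limit lost 21, among them Cxcr2, Cyfip2, Mxd1, Slc2a3 and Il1r2. Membership of Cxcr2, Cyfip2, Mxd1 and Slc2a3 thus depended on the early limit and on single libraries. The median log2 fold change of all genes at day 6 against day 4 was -0.03 with TMM, -0.18 under upper-quartile scaling and -0.42 on library totals. Library totals called 1331 genes higher and 6263 lower at that step, against 2851 and 2726. Each library left out gave 2308 to 3422 higher and 1988 to 3431 lower at day 6 against day 4, and 2173 to 3103 higher and 1670 to 3040 lower at day 4 against untreated. With each library left out, neutrophil list genes outside the 51 gave 67 to 72 higher and 9 to 13 lower at day 6 against day 4, and 44 to 61 higher and 7 to 10 lower at day 4 against untreated. Library totals gave 62 higher and 16 lower of them at day 6 against day 4, and DESeq2 gave 64 higher at day 4 against untreated. For 56 named list genes at both steps, 2086 of 2223 alternative values kept direction and side of the threshold, 114 lost the call, 23 gained it and 0 reversed.

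Replicate numbers did not pair the libraries. Residuals of same-numbered libraries correlated at 0.006 on average over 18 pairs (-0.17 to 0.29), and for 4 of 12 libraries the closest one carried the same number. With the replicate block 2751 genes were higher and 2680 lower at day 6 against day 4, and 69 and 13 of the neutrophil list genes. At these depths genes under 1 CPM before Dox rest on a few counts, so their ratios are imprecise.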
